A study of Mus musculus with 8 samples.

Results

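The polo-like kinases Plk1, Plk2, Plk3 and Plk4 were followed in mouse glomeruli across control animals, animals of a Tln1 line given vehicle and animals of that line given valproic acid. The members were taken by symbol, each with the probe set of a single gene symbol that had the highest mean over the 8 arrays. All 4 listed genes were found, each with 1 such probe set, among 22180 genes measured. The list was drawn up with results of these arrays known, among them the low value of Plk3 in Tln1 vehicle against control. That difference is therefore given as a description with no test, and the other differences of Plk3, which share arrays with it, are no independent evidence.

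Glomeruli, the filtering units of the kidney, were isolated from mice aged 13 weeks, and total RNA was hybridised to Affymetrix arrays, 1 array per sample. All groups received doxycycline for 3 weeks from an age of 8 weeks. The 2 control arrays carry only the genotype label control, and their labels do not say whether vehicle was given. The 3 Tln1 vehicle and the 3 Tln1 VPA arrays came from the line Tln1 Pod-rtTA TetO-Cre. Its name denotes a Cre recombinase switched on by doxycycline through an activator (rtTA) active in podocytes, the epithelial cells of the filter. Tln1 encodes talin 1, which links integrins to actin. Treatment with vehicle or with valproic acid (VPA), which inhibits histone deacetylases, followed for 2 weeks. Podocytes make up only some of the cells in the isolate, so fewer cells of a type and less RNA per cell cannot be told apart in any value given here. Whether each array stands for its own animal is not in the labels, and the p values speak only of the spread from sample to sample here, which may be technical.

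Polo-like kinases are serine and threonine kinases with a kinase domain at one end and polo boxes, which dock the enzyme on its substrates or on centrosomes, at the other. Plk1 drives entry into mitosis, spindle assembly and cytokinesis, and Plk4 starts the duplication of centrioles. Plk2 and Plk3 are induced by serum, growth factors and cell stress and are also found in cells that do not divide. Glomerular cells of adult animals divide little, and podocytes hardly at all.

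The arrays fell into 2 sets that cut across the groups. The first set holds control 1, Tln1 vehicle 1 and 2 and Tln1 VPA 1 and 2, and the second holds control 2, Tln1 vehicle 3 and Tln1 VPA 3. Arrays of one set correlated at 0.990 to 0.995 over the genes, and arrays of different sets at 0.966 to 0.979. Arrays of the first set shared values equal to the last deposited digit in 1989 to 2600 of 41345 probe sets per pair, and arrays of the second set in 3759 to 4340. Pairs of arrays from different sets shared 0 to 2 such values. RMA, the method named for these data, can return the same value for several arrays that it summarises together, and the labels do not say which arrays were. Differences of the 4 kinases are therefore also given within the sets. In the second set these rest on single arrays, and in the first on a single control array. The mean of the podocyte markers was 7.29 to 7.80 on first-set arrays against 8.20 to 8.86 on second-set arrays. Markers of the proximal tubule, which is not part of the glomerulus, stood at 11.55 to 11.92 against 10.49 to 11.09. The Y-linked genes averaged 3.57 in control 1, 4.85 to 6.996 on first-set Tln1 arrays, and 2.56 to 2.72 on all 3 second-set arrays. First-set changes against control therefore cannot be told apart from what this difference stands for, such as the sex of the animals. The same limit applies to changes over all arrays, where the Y-linked mean was 3.14 (control), 5.16 (Tln1 vehicle) and 4.41 (Tln1 VPA). It also applies to Tln1 VPA against Tln1 vehicle, where the median Y-linked change was -1.11 on first-set arrays and -0.16 on second-set arrays. Values of the kinases with the Y-linked genes as a covariate are also given below.

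The sequence directly before the start of each gene is shown first, since the members differed in direction across the same arrays. Each run holds the 150 bases before the annotated start, 5′ to 3′ on the strand of the gene, from RefSeq on GRCm38.p6. Plk1 lies at chr7:122159285-122159434 (plus strand), Plk2 at chr13:110394894-110395043 (plus strand), Plk3 at chr4:117133964-117134113 (minus strand) and Plk4 at chr3:40799801-40799950 (plus strand). Capitals mark matches, on either strand, to TTTGAA (the CHR of cell cycle genes), the CCAAT box, TGACG (the core of the cyclic AMP response element), GGGCGG (the GC box), GCGGGAA (an E2F core), TGANTCA (AP-1) or the CArG box of serum response factor.
Plk1: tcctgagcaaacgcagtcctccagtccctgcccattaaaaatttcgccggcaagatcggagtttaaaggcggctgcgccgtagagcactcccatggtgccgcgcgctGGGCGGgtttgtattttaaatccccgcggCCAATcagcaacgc
Plk2: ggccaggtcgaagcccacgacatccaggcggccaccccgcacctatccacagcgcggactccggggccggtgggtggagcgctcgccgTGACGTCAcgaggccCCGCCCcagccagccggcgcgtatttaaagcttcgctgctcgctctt
Plk3: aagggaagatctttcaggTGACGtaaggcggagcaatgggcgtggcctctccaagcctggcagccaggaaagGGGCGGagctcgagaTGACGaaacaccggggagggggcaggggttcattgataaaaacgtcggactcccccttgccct
Plk4: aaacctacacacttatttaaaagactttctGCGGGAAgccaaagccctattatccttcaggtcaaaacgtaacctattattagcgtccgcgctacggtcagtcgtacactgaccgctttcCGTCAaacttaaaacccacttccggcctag

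The Plk1 stretch held a GC box and a CCAAT box, and TTTGAA followed at bases 31 to 36 after the start. The Plk2 stretch held TGACG on both strands as overlapping matches and a GC box, and TGACG on the minus strand followed at bases 22 to 26 after the start. Plk3 held TGACG at 2 places, with a GC box between them. Plk4 held an E2F core and 1 TGACG, and had the lowest share of G and C, 46.0%, while Plk2 had the highest, 70.7%. Among all 32851 promoters of the table, the same 150 bases held TGACG in 13.3%, GGGCGG in 28.6%, CCAAT in 24.5% and GCGGGAA in 2.6%. TTTGAA (9.1% of promoters), TGANTCA (4.2%) and the CArG box (0.9%) were not in the windows of the 4 genes. These are matches of letters and show no binding.

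Plk3 was the member with the widest range over the arrays. Its log2 values were 8.06 and 7.83 on the control arrays 1 and 2, 6.70, 5.92 and 6.54 on the vehicle arrays 1 to 3, and 6.99, 6.96 and 7.34 on the VPA arrays 1 to 3. No pair of groups overlapped: control was highest, Tln1 vehicle lowest, and Tln1 VPA lay between them. The group means were 7.94 ± 0.16 (SD, n = 2), 6.39 ± 0.41 (n = 3) and 7.10 ± 0.21 (n = 3). Plk3 was 2.94-fold lower in Tln1 vehicle than in control (log2 change -1.55, SE 0.25), and this is the value known when the list was made. Within the sets the change was -1.75 and -1.28, so it had the same direction in both. Only 0.036% of the 22180 genes had a lower change. The set changes and this share describe the same known value and are no further evidence for it.

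Tln1 VPA lay 1.63-fold above Tln1 vehicle for Plk3 (0.71, SE 0.22, 95% interval 0.19 to 1.22, adjusted p = 1 by limma over all genes). This change was 0.66 and 0.79 in the sets, and 0.45 with array weights. Against control, Plk3 was 1.80-fold lower in Tln1 VPA (-0.85, SE 0.25, interval -1.42 to -0.28, limma adjusted p = 1), with -1.08 and -0.49 in the sets. Set against the control array of its own set, Plk3 was lowest in Tln1 vehicle 2 at -2.14 and nearest to control in Tln1 VPA 3 at -0.49. In each set every Tln1 VPA array was above every Tln1 vehicle array. Both comparisons share arrays with the low value that was known when Plk3 was listed. Their intervals and p values take no account of that choice and are descriptions only.

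Plk2, the kinase grouped with Plk3 by its induction under serum and stress, differed from control in the opposite direction. Its values were 5.81 and 5.86 for control, 6.56, 6.25 and 6.68 with vehicle, and 6.52, 6.39 and 6.68 with VPA. All 6 Tln1 arrays lay above both control arrays, and the Tln1 groups overlapped. The means were 5.84 ± 0.035 (SD, n = 2), 6.50 ± 0.22 (n = 3) and 6.53 ± 0.15 (n = 3). In Tln1 vehicle against control Plk2 was 1.58-fold higher (0.66, SE 0.16, interval 0.28 to 1.04), with 0.59 and 0.82 in the sets. It did not pass over all genes (limma adjusted p = 1, 0.144 to 1 over 17 alternatives).

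Plk2 was also 1.61-fold higher in Tln1 VPA than in control (0.69, SE 0.16, interval 0.31 to 1.07, limma adjusted p = 1, 0.101 to 1 over 17 alternatives), with 0.64 and 0.82 in the sets. Between the 2 Tln1 groups the difference was 0.031 (SE 0.15), and its interval of -0.31 to 0.37 leaves room for a change of that size either way. The values of Tln1 vehicle 3 and Tln1 VPA 3 were equal to the last digit, one of the ties described above. The sign of that difference turned with array weights (-0.047), with the Y-linked genes as a covariate (-0.034), without Tln1 vehicle 2 (-0.093) and without Tln1 VPA 3 (-0.045).

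**Figure D1:**
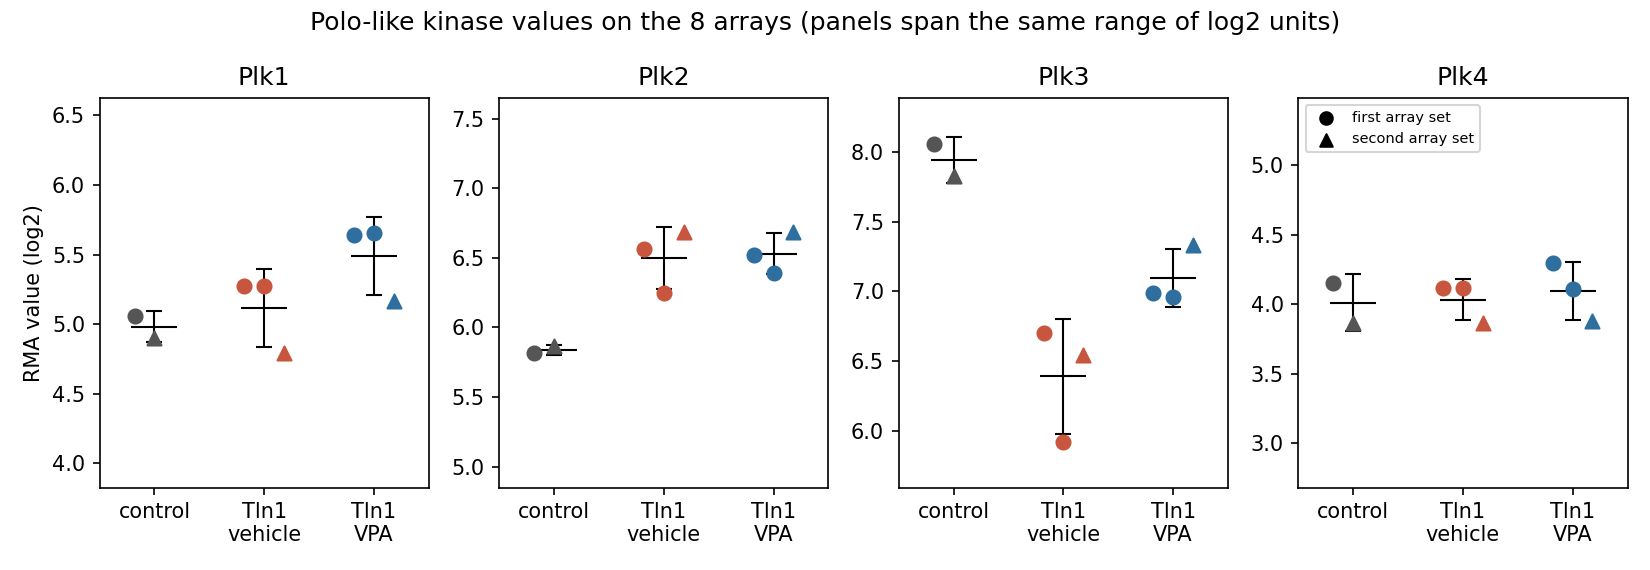
RMA values (log2) of the 4 polo-like kinases on each array, with the group mean (line) and SD (bars), for control (n = 2), Tln1 vehicle (n = 3) and Tln1 VPA (n = 3). Circles are arrays of the first set and triangles of the second. Plk3 runs from 8.06 in control 1 to 5.92 in Tln1 vehicle 2, Plk2 is above control on all 6 Tln1 arrays, and within each group Plk1 and Plk4 are lowest on the second-set array.

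Plk1, the kinase of mitotic entry, had its highest values in Tln1 VPA. It was at 5.06 and 4.90 for control, 5.28, 5.28 and 4.79 with vehicle, and 5.64, 5.66 and 5.16 with VPA. The VPA arrays all lay above both control arrays, while they overlapped with Tln1 vehicle through the second-set array Tln1 VPA 3. The means were 4.98 ± 0.11 (SD, n = 2), 5.12 ± 0.28 (n = 3) and 5.49 ± 0.28 (n = 3). Tln1 VPA was 1.42-fold above control (0.51, SE 0.21, interval 0.0075 to 1.00, limma adjusted p = 1, 0.264 to 1 over 17 alternatives), with 0.59 and 0.26 in the sets and 0.33 with the Y-linked covariate.

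Tln1 VPA was 1.29-fold above Tln1 vehicle for Plk1 (0.37, SE 0.19, interval -0.074 to 0.82, limma adjusted p = 1). The difference was the same in both sets, 0.37 and 0.37, and within each set every VPA array was above every vehicle array. With the array set as a term its SE was 0.086 in place of 0.19, and the limma adjusted p was 0.789 (0.31 to 1 over 18 alternatives). Without Tln1 vehicle 3 the change was 0.21. Tln1 vehicle against control gave 0.13 (SE 0.21, interval -0.36 to 0.63), with 0.22 and -0.11 in the sets. That difference went from 0.053 to 0.29 as single arrays were left out (lowest without Tln1 vehicle 1, highest without Tln1 vehicle 3), and it was -0.14 with the Y-linked covariate.

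Plk4, the kinase of centriole duplication, showed no difference between groups beyond the spread of the arrays. Its values were 4.15 and 3.86 for control, 4.12, 4.12 and 3.86 with vehicle, and 4.30, 4.11 and 3.88 with VPA. The groups overlapped in every comparison, and the lowest value of each group was its second-set array. The means were 4.01 ± 0.20 (SD, n = 2), 4.03 ± 0.15 (n = 3) and 4.09 ± 0.21 (n = 3). The changes were 0.024 (interval -0.38 to 0.42) in Tln1 vehicle against control, 0.062 (-0.30 to 0.42) in Tln1 VPA against Tln1 vehicle and 0.086 (-0.31 to 0.49) in Tln1 VPA against control, so changes of up to 0.42 to 0.49 upward lie within the intervals. Within the first and the second set they were -0.037 and 0, 0.086 and 0.014, and 0.049 and 0.014. The sign of each of the 3 turned under some alternatives, for the first under quantile normalisation (-0.021), median centring (-0.012) and the array set as a term (-0.025). Tln1 vehicle 1 and 2 had equal values, as had control 2 and Tln1 vehicle 3. Plk4 averaged 4.05 over the arrays, below the median gene level of 4.92.

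None of the 22180 genes was called at an adjusted p below 0.05 by limma in any of the 3 comparisons, a background of 0%, and this includes all 4 kinases. At an unadjusted p below 0.05, 0.78% of genes were higher and 0.672% lower in Tln1 vehicle against control, where Plk2 was among the higher and Plk3 is not read against this test. The shares were 0.834% higher and 0.428% lower in Tln1 VPA against Tln1 vehicle, with Plk3 among the higher. They were 1.23% higher and 0.64% lower in Tln1 VPA against control, with Plk1 and Plk2 among the higher and Plk3 among the lower. Arrays did not overlap for 4.78% of genes as higher and 3.59% as lower in Tln1 vehicle against control, where Plk2 was of the first kind and Plk3 of the second. Between the Tln1 groups the shares came to 1.98% and 1.57%, and Plk3 alone of the 4 was separated (higher). For Tln1 VPA against control they were 5.57% and 3.98%, with Plk1 and Plk2 separated as higher and Plk3 as lower. Because the kinases were listed with such values known, nothing is read from these counts.

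The main fit held no term for the array set, so differences between the sets counted in its spread. With the array set as a term, 0 genes were called in each comparison (limma), and 1620, 1205 and 1800 genes had an unadjusted p below 0.05. In that fit Plk2 was at 0.69 (SE 0.12) in Tln1 vehicle and 0.72 (SE 0.12) in Tln1 VPA against control, and Plk1 at 0.44 (SE 0.097) in Tln1 VPA against control. Plk3 was at -1.53 (SE 0.24) in Tln1 vehicle against control. The kinases also differed between the sets. With group as a term, the second set was lower than the first by 0.39 (SE 0.077) for Plk1 and by 0.29 (SE 0.067) for Plk4. For Plk2 and Plk3 the second set was higher by 0.20 (SE 0.093) and 0.15 (SE 0.19). Of all genes, 67.5% had a smaller absolute set difference than Plk1 and 31.1% a smaller one than Plk3.

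**Figure D2:**
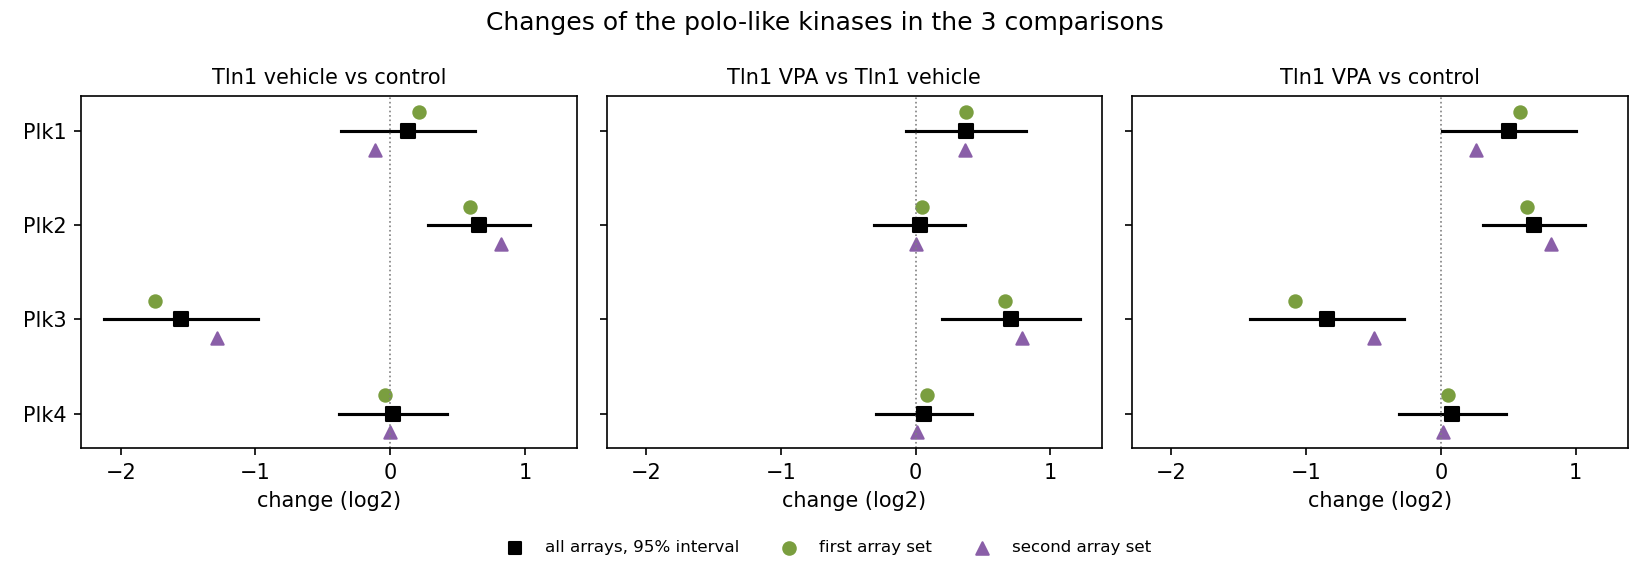
Log2 change of each polo-like kinase in the 3 comparisons. Squares with lines are the limma estimate over all arrays with its 95% interval, circles the difference of means within the first set and triangles that within the second. The interval of Plk4 holds 0 in each comparison, Plk2 sits near 0 only in Tln1 VPA against Tln1 vehicle, and Plk3 is at -1.55, 0.71 and -0.85.

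The contrast of the stress kinases with the mitotic kinases was set out against the control array of the same set. The mean of Plk2 and Plk3 was -0.30, -0.85 and -0.23 on the vehicle arrays 1 to 3 and -0.18, -0.26 and 0.16 on the VPA arrays 1 to 3. These means hide opposite members: on all 6 Tln1 arrays Plk2 lay above its control (0.44 to 0.82) and Plk3 below (-2.14 to -0.49). The mean of Plk1 and Plk4 was 0.090, 0.090 and -0.055 in Tln1 vehicle and 0.36, 0.27 and 0.14 in Tln1 VPA, with Plk1 carrying it. Stress minus mitosis was thus -0.39, -0.94 and -0.18 in Tln1 vehicle and -0.55, -0.54 and 0.026 in Tln1 VPA. The 2 Tln1 groups overlapped in this measure, and it has no test because its members were chosen.

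Among the 4 genes over the 8 arrays, Pearson correlations ran from -0.58 (Plk2 with Plk3) to 0.76 (Plk1 with Plk4). They are descriptions of 8 arrays that share groups and sets. With group means removed, Plk2 with Plk3 came to 0.84 and Plk1 with Plk4 to 0.88, while with set means removed these were -0.64 and 0.38. Plk2 and Plk3 went opposite ways from control to the Tln1 groups. Control 1 and control 2, a single pair from different sets, had Plk2 at 5.81 and 5.86 and Plk3 at 8.06 and 7.83. With group as a term both genes were higher in the second set, by 0.20 and 0.15.

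**Figure D3:**
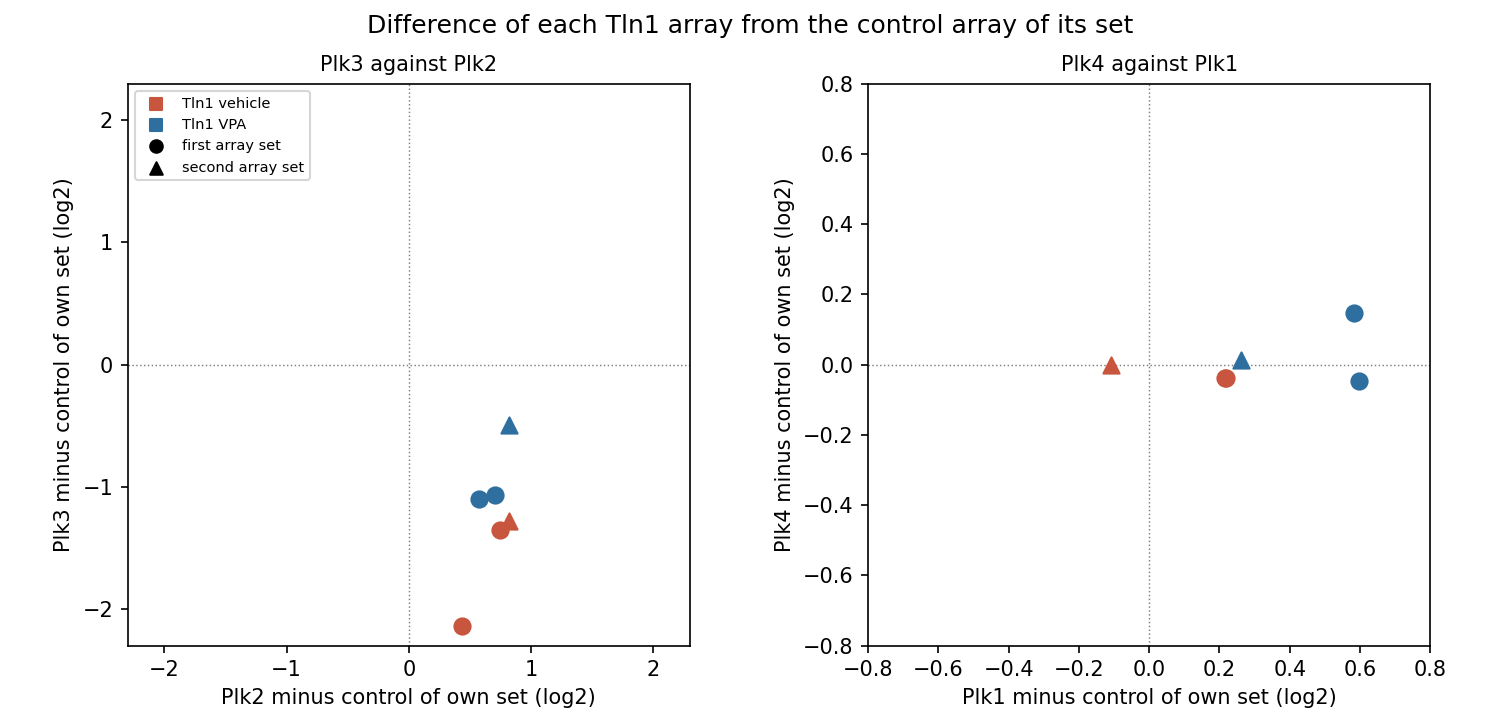
Difference of each Tln1 array from the control array of its own set (log2), for Plk3 against Plk2 (left) and Plk4 against Plk1 (right), with axis ranges that differ between the panels. Red marks Tln1 vehicle, blue Tln1 VPA, circles the first set and triangles the second, and the first-set vehicle arrays lie on top of each other on the right. On the left all 6 arrays have Plk2 above 0 and Plk3 below 0, and on the right Plk1 spreads from -0.11 to 0.60 while Plk4 stays between -0.047 and 0.15.

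The mitotic partners of Plk1 were higher in Tln1 VPA than in Tln1 vehicle in 21 of 22 measured genes, with a median change of 0.35 (all genes 0.0032, of which 51.3% were higher) and set medians of 0.43 and 0.20. None of the 22 passed over all genes (limma), and in 5 the arrays of the groups did not overlap, against 1.98% of all genes as higher without overlap. Against control, all 22 were higher in Tln1 VPA (median 0.41, none called), where 56.8% of all genes were higher. In Tln1 vehicle against control 17 of 22 were higher (median 0.11, none called), where the share of all genes was 55.6%. This list and the other gene lists below were chosen with earlier results of these data known. Genes of a list also share the same arrays and are no independent observations, so the list counts are descriptions only. Prc1, which bundles the microtubules of the central spindle and docks Plk1 there, was at 4.12 and 3.92 for control, 4.804, 4.09 and 4.59 with vehicle, and 5.69, 5.19 and 4.96 with VPA. All VPA arrays lay above all others. Its change between the Tln1 groups was 0.78 (SE 0.24, limma adjusted p = 1).

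Foxm1, a transcription factor of mitotic genes that Plk1 activates, was also separated between the Tln1 groups (0.41, SE 0.16), with 0.57 and 0.096 in the sets. The kinase Aurka and its cofactor Bora, which together switch on Plk1, differed by 0.28 (SE 0.24) and 0.19 (SE 0.18), with overlapping arrays and equal second-set values. Cdk1, the main mitotic cyclin-dependent kinase, was at 0.55 (SE 0.36), with 0.83 in the first set and equal values, a change of 0, in the second. Its activating phosphatase Cdc25c was at 0.27 (SE 0.16). Wee1, which restrains Cdk1 and is marked for destruction by Plk1, was at 0.34 (SE 0.22), and its second-set values were equal too (sets 0.51 and 0). Fbxo5, an inhibitor of the anaphase-promoting complex, was at 0.35 (SE 0.23), and the checkpoint kinase Bub1 at 0.17 (SE 0.18). None of these genes passed, and for Aurka, Bora, Cdk1 and Wee1 the difference came from the first set alone. Foxm1 (3.29 to 4.12), Cdc25c (2.84 to 3.55) and Bub1 (3.00 to 3.66) were below the median gene level of 4.92 on every array. Bora and Fbxo5 were below it on every array but Tln1 VPA 1, and Prc1 on every control and vehicle array. For Foxm1 the highest vehicle value was 3.79 and the lowest VPA value 3.89. Ccnb1 had no probe set with its symbol alone and is not analysed here.

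Genes of centriole duplication around Plk4 had small median changes. Between the Tln1 groups 12 of 18 were higher and 6 lower (median 0.038, none called by limma, none separated). All genes had a median of 0.0032 there, with 51.3% higher. In Tln1 vehicle against control 11 of 18 were higher (median 0.067, none called), against a median of 0.019 and 55.6% higher for all genes. Stil, the partner that activates Plk4, had the largest change of the 18 between the Tln1 groups, at 0.50 (SE 0.22), with 0.70 and 0.096 in the sets. Its values of 2.93 to 4.12 were all below the median gene level of 4.92. The cartwheel protein Sass6 was at 0.20 (SE 0.21). Cep152 and Cep192, which recruit Plk4 to the centriole, were at 0.34 (SE 0.24) and 0.092 (SE 0.15). Cenpj, which sets centriole length, was at 0.019 (SE 0.15), and Ccp110, which caps the centriole, at 0.20 (SE 0.17).

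**Figure D4:**
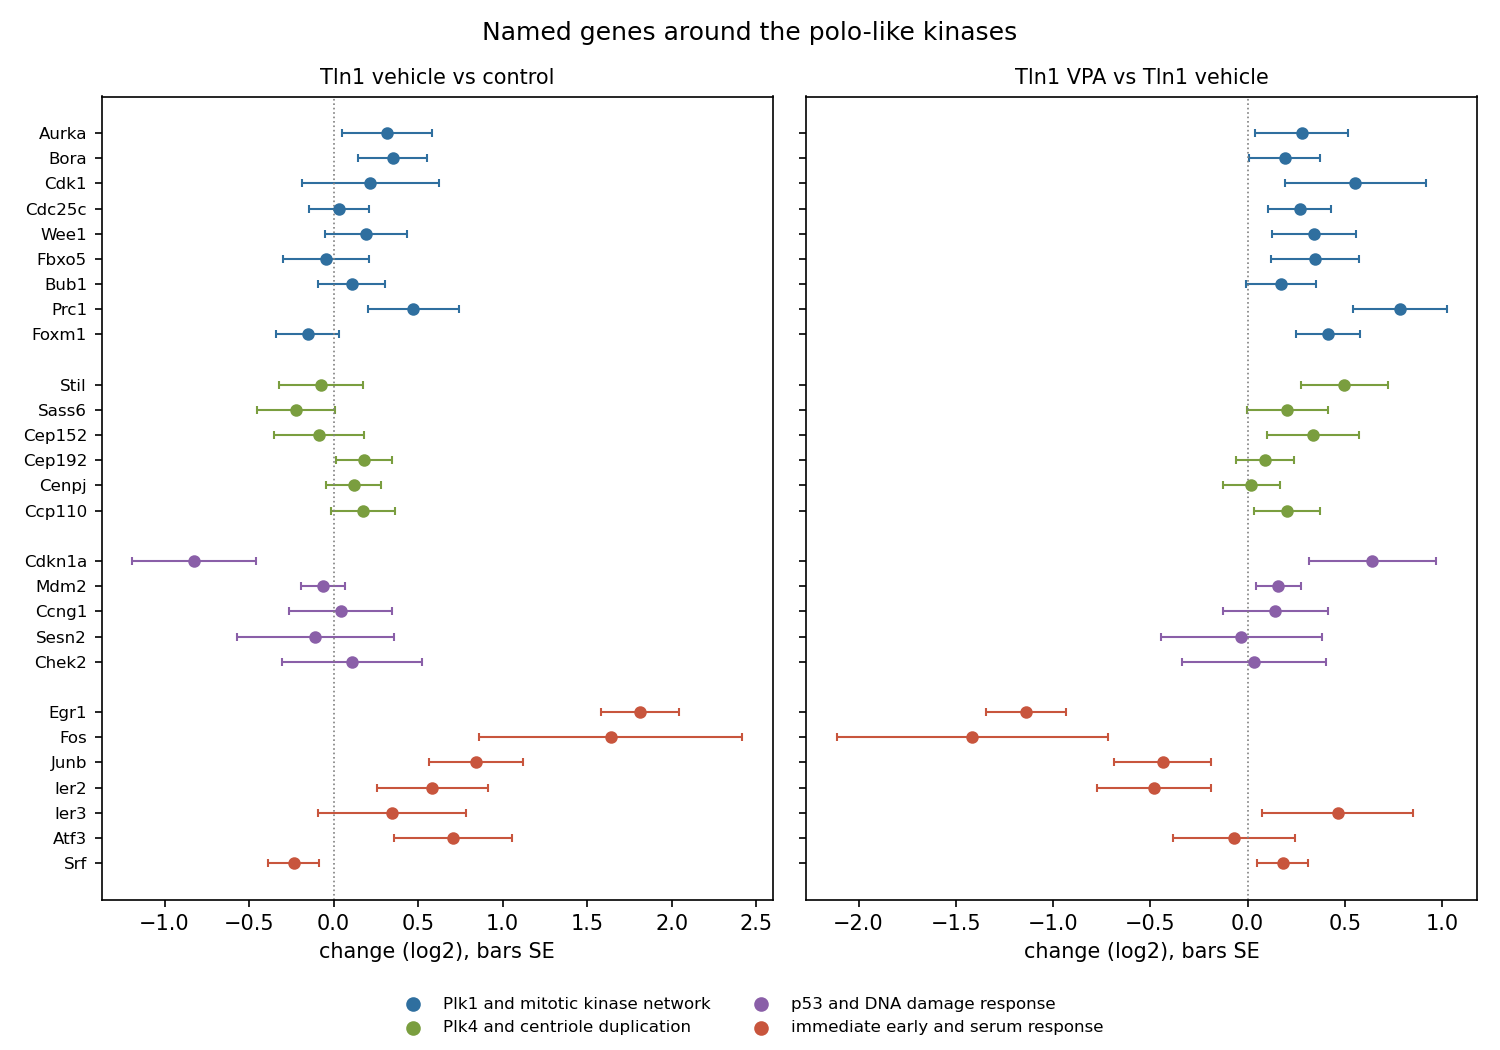
Log2 changes with SE of the named genes of the 4 lists around the polo-like kinases, in Tln1 vehicle against control (left) and Tln1 VPA against Tln1 vehicle (right). The 9 mitotic genes lie at 0.17 to 0.78 on the right. Egr1 and Fos are highest on the left (1.81 and 1.64) and lowest on the right (-1.14 and -1.42), and Cdkn1a is lowest on the left (-0.83).

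Genes of the p53 and DNA damage response, in which Plk2 and Plk3 are known to take part, gave no shared direction. In Tln1 vehicle against control 10 of 19 were higher and 9 lower (median 0.041, all genes 0.019, none called by limma), and in Tln1 VPA against Tln1 vehicle 9 were higher and 10 lower (median -0.0082, none called). Cdkn1a, the cyclin-dependent kinase inhibitor p21, had group means in the same order as Plk3, control highest and Tln1 vehicle lowest. It was at 8.18 and 8.00 for control, 7.46, 6.59 and 7.74 with vehicle, and 7.75, 7.57 and 8.40 with VPA. The vehicle arrays lay below both control arrays, while Tln1 VPA overlapped with each of the other groups. Its change was -0.83 (SE 0.37, limma adjusted p = 1) in Tln1 vehicle against control, with -1.16 and -0.25 in the sets, and 0.64 (SE 0.33) in Tln1 VPA against Tln1 vehicle.

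Mdm2, the ubiquitin ligase of p53, was at -0.062 (SE 0.13) and 0.16 (SE 0.12) in the same comparisons. Ccng1, a p53 target, was at 0.041 (SE 0.30) and 0.14 (SE 0.27), the stress protein Sesn2 at -0.11 (SE 0.46) and -0.032 (SE 0.41), and the checkpoint kinase Chek2 at 0.11 (SE 0.41) and 0.032 (SE 0.37). Trp53 and Gadd45a had no probe set with their symbol alone and are not analysed here.

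Immediate early and serum response genes, the class to which Plk2 and Plk3 belong by their induction, were higher in Tln1 vehicle than in control in 15 of 20 (median 0.27, set medians 0.19 and 0.51, none called by limma). In Tln1 VPA against Tln1 vehicle 8 were higher and 12 lower (median -0.091, set medians 0.059 and -0.38, none called). Among all genes 55.6% were higher in the first of these comparisons and 51.3% in the second. Egr1, a zinc finger transcription factor, had changes of 1.81 (SE 0.23) and -1.14 (SE 0.20), opposite to Plk3 in both comparisons. Fos was at 1.64 (SE 0.78) and -1.42 (SE 0.70), and Junb at 0.84 (SE 0.28) and -0.44 (SE 0.25), both subunits of AP-1. Ier2 was at 0.58 (SE 0.33) and -0.48 (SE 0.29). Ier3, at 0.35 (SE 0.44) and 0.46 (SE 0.39), and Atf3, a stress-induced transcription factor, at 0.71 (SE 0.35) and -0.071 (SE 0.31), did not turn below 0 to that extent in the second comparison. Srf, which binds the CArG box, was at -0.24 (SE 0.15) and 0.18 (SE 0.13).

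Cell type markers moved with some of these values. Mesangial and smooth muscle markers, 9 of 10 measured, averaged 6.57 and 6.83 for control, 7.10 to 7.35 with vehicle and 6.86 to 6.99 with VPA, all 9 being higher in Tln1 vehicle than in control, where Plk2 was higher and Plk3 lower. Proximal tubule markers were lower in 12 of 15 in that comparison, at 11.09 to 11.70 for control, 10.49 to 11.92 with vehicle and 10.54 to 11.66 with VPA. Podocyte markers, 12 of 15 measured, were at 7.30 to 8.86, 7.62 to 8.56 and 7.29 to 8.20 and lower in 7 of 12. Also in Tln1 vehicle against control, 8 of 11 endothelial and 4 of 6 parietal epithelial markers were higher and 7 of 11 macrophage markers lower. Median changes differed in sign between first and second set for endothelial (-0.15, 0.98), macrophage (-0.22, 0.17) and podocyte markers (0.31, -0.20). Parietal epithelial markers were near 0 in both (-0.0027, 0.029). Mesangial and smooth muscle (0.37, 0.74) and proximal tubule markers (-0.046, -0.68) kept their sign. The share of all genes that were higher in this comparison was 55.6%. In Tln1 VPA against Tln1 vehicle, where Plk1 was higher, 11 of 11 macrophage markers (4.51 to 5.10 against 4.73 to 5.67) and 5 of 6 parietal epithelial markers (6.50 to 6.78 against 6.74 to 7.02) were higher, and 10 of 11 endothelial markers (8.47 to 9.45 against 8.53 to 8.76) were lower. Podocyte markers were lower there in 11 of 12, proximal tubule markers in 13 of 15 and mesangial and smooth muscle markers in 8 of 9. The set medians of the proximal tubule markers differed in sign there, at -0.24 (first) and 0.13 (second, single arrays). Their lower count over all arrays therefore does not hold for each set. The medians of the other cell type lists kept their sign across the sets. The share of all genes that were higher between the Tln1 groups was 51.3%. No marker of these lists passed over all genes (limma). The part of these shifts in the values of the kinases was not tested. With the Y-linked genes as a covariate Plk3 was at -1.34 (SE 0.23) and Plk2 at 0.84 (SE 0.12) in Tln1 vehicle against control.

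For each kinase the 3 genes with the most similar profile over the 8 arrays were taken from genes above the median level of 4.92. The measure was Pearson's r over 8 arrays, which share groups and sets. As the genes were picked on these same arrays, group differences like those of their kinase follow from the choice. Nearest to Plk3 were Adssl1, an adenylosuccinate synthase (r = 0.96), Sall1, a zinc finger factor of kidney development (0.93), and Tfip11, a splicing factor (0.93). All 3 were lower in Tln1 vehicle than in control (-0.37, SE 0.12; -0.61, SE 0.18; -0.24, SE 0.12), each by less than Plk3. Nearest to Plk2 were Stc1, the secreted glycoprotein stanniocalcin 1 (0.97), the surface glycoprotein Cd24a (0.94) and the receptor Lrp1 (0.94). Stc1 was at 6.89 and 7.06 for control, 8.42, 7.62 and 8.44 with vehicle, and 8.39, 8.16 and 9.07 with VPA, so all Tln1 arrays lay above control, as for Plk2. Its change was 1.19 (SE 0.33) in Tln1 vehicle and 1.57 (SE 0.33) in Tln1 VPA against control.

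Nearest to Plk1 were Tbca, a tubulin-folding cofactor (0.98), Ezh2, the histone methyltransferase of Polycomb (0.97), and Afap1, an actin-binding protein (0.97). Their changes in Tln1 VPA against Tln1 vehicle were 0.24 (SE 0.19), 0.31 (SE 0.19) and 0.24 (SE 0.16), and r stayed at 0.98, 0.95 and 0.94 with set means removed. Nearest to Plk4 were Gm10362, Ano10 and Jpt2 (r = 0.996 for each), whose second-set values all lay below their first-set values.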

How the data were processed

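The authors deposited log2 values computed by the RMA method, as the submitters' processing notes record (limma is named there too). Neither a build nor a tool version is given in the sources used here. The deposited table held 41345 probe sets on 8 arrays, with log2 values from 1.49 to 13.9, and no scanner values were used here. Of the probe sets 23521 had 1 gene symbol, 1814 several and 16010 none in the platform annotation, and the brightest single-symbol probe set per gene gave 22180 genes. Entrez identifiers matched the RefSeq table for 23328 probe sets and changed 0 symbols. The number of arrays limits the precision.

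All comparisons came from 1 fit of limma 3.58.1 in R 4.3.3 (lmFit, eBayes, a mean per group, two-sided), with Benjamini-Hochberg adjustment over all genes and calls at an adjusted p below 0.05. The fit was tested on simulated data. Array sets came from average-linkage clustering on correlation. The kinases, the lists (146 of 157 genes measured) and the alternatives were chosen with earlier results of these data known. The text names the 4 kinases, list genes picked by role, and the 3 genes nearest to each kinase by Pearson's r. The cell type lists are described as lists only. Vehicle and VPA arrays with the same number in their titles deviated together (r = 0.570, 0.609 and 0.787), as did other pairs within a set (0.510 and 0.515). Control and Tln1 vehicle share 2 numbers (0.609 and -0.591). Plots used matplotlib 3.10.9 (Python 3.11.15).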

Additional observations from a re-analysis of the deposited data

How the results depend on the processing

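The 12 differences of the kinases were recomputed under 205 combinations of difference and alternative. Of these, 187 kept their direction, none was called, and 18 changed sign. The 187 include settings that could not move a change, only its SE or adjusted p. With 1 probe set per kinase these were the mean of probe sets, every probe set, genes above the median level, trended eBayes and only the 2 groups. Blocks could not move Tln1 VPA against Tln1 vehicle either. The differences of Plk3 and of Plk1 and Plk2 in Tln1 VPA against control kept their sign throughout, as did Plk2 in Tln1 vehicle against control and Plk1 in Tln1 VPA against Tln1 vehicle. Plk3 was at -1.75 to -1.32, 0.45 to 0.86 and -1.08 to -0.72 in the 3 comparisons over all alternatives. Plk4 in Tln1 vehicle against control was at -0.021 after quantile normalisation, -0.012 with median centring, -0.025 with array sets as blocks, -0.037 in the first set alone and -0.14 with the Y-linked covariate, and ran from -0.12 to 0.17 as single arrays were left out. In Tln1 VPA against control it was -0.016 with the Y-linked covariate and -0.059 to 0.23 without single arrays, and in Tln1 VPA against Tln1 vehicle -0.040 to 0.17 without single arrays. Plk2 in Tln1 VPA against Tln1 vehicle was -0.047 with array weights, -0.034 with the Y-linked covariate and -0.093 to 0.12 without single arrays, and Plk1 in Tln1 vehicle against control -0.14 with the covariate. With that covariate Plk1, Plk3 and Plk4 were at 0.47, 0.63 and 0.12 in Tln1 VPA against Tln1 vehicle. Plk2 and Plk3 were then at 0.80 and -0.72 in Tln1 VPA against control.

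With the replicate number as a block, 4 genes were called by limma in Tln1 vehicle against control (Ces1f, Ces1g, Cyp2e1 and Cyp2j13, named after their values were seen), 1 in Tln1 VPA against control (Ces1g) and 0 in Tln1 VPA against Tln1 vehicle; the block changed no other call, and the cause was not tested. The Y-linked covariate gave 21 calls in Tln1 VPA against control and 0 in the others. The other alternatives called 0 genes in each comparison. The small number of arrays and the low values of Plk4, Foxm1, Cdc25c, Bub1, Stil, Bora, Fbxo5 and, outside Tln1 VPA, Prc1 limit what these data can show.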

Other observations

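Plk5, a polo-like kinase gene outside the list, was at 4.37 to 4.55 in control, 4.24 to 4.70 in Tln1 vehicle and 4.24 to 4.52 in Tln1 VPA. Its changes were 0.046 (SE 0.17), -0.096 (SE 0.15) and -0.051 (SE 0.17) in Tln1 vehicle against control, Tln1 VPA against Tln1 vehicle and Tln1 VPA against control, none past limma's threshold over all genes.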
